A study of Mus musculus with 3 samples.

Results

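The mouse Iroquois genes Irx1 to Irx6 are described here by the LMX1B binding intervals listed around them in limb buds. An interval belonged to a gene when its midpoint lay in the domain of that gene. The domain reached from the gene body on mm10 to the neighbouring protein-coding genes, with no side longer than 1 Mb. By this rule 14 of the 5788 listed intervals belonged to the 6 genes: 3 of 1287 in the first ChIP and 11 of 4501 in the validation ChIP. Of these, 2 pairs overlapped, so the 14 intervals mark 12 places.

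Chromatin immunoprecipitation with sequencing (ChIP-seq) recovers the DNA to which a protein is bound. The protein was LMX1B, the LIM homeodomain factor that gives the limb its dorsal side, and the antibody in each ChIP was the polyclonal BMO8. Limb buds came from C57BL/6 embryos at embryonic day 12.5, fore- and hindlimbs pooled, with 2 runs of 48 limb buds each. Fixation was with 1% formaldehyde for 15 min. The first ChIP carries WT in the name of its track, while the validation ChIP has no genotype in its labels, and neither is said to carry an allele or treatment. The input DNA came from pooled wild-type and mutant chromatin, with the mutant allele not named, and was not analysed here. Each ChIP is 1 sample. There is therefore no spread between replicates and no test between the samples, and all values below describe these 2 lists. Pooled whole limb buds also hold cells that do not make LMX1B, such as ventral mesenchyme, so strong binding in few cells and weak binding in many cannot be told apart. Interval lists carry no levels of marker genes, so the tissue label could not be checked.

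Iroquois genes encode transcription factors with a homeodomain of the TALE class, which carries an extra loop between its first helices. In mammals they lie in a pair of clusters made by duplication, and their regulatory elements are spread through long gene deserts. Irx3 and Irx5 act together in the early limb bud on progenitors of proximal and anterior skeleton. Irx1 and Irx2 are known from forming digits, Irx4 from the ventricles of the heart and Irx6 from the retina. The cluster on mouse chromosome 13 holds Irx1, Irx2 and Irx4, and the one on chromosome 8 holds Irx3, Irx5 and Irx6.

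Promoter sequences are shown first for Irx2, Irx3 and Irx4, the 3 of the 6 genes matched in the RefSeq promoter table (GRCm38.p6, the assembly of mm10), and for Crnde, the long non-coding RNA gene beside Irx5. These 4 windows are shown because they were the ones available. No interval of either ChIP lay on them. Promoters of Irx1, Irx5 and Irx6 were not analysed here. Each sequence below is the 250 bases before an annotated start of transcription on the strand of the gene. For Irx2 and Irx4 the sequence lies inside the gene body used here (72624430 to 72634196 and 73259589 to 73269622). The start used for these genes is thus not the lower end of that body. Capitals mark the only motif found in them, an E-box (CANNTG).
Irx2, chr13:72628570-72628819, plus strand: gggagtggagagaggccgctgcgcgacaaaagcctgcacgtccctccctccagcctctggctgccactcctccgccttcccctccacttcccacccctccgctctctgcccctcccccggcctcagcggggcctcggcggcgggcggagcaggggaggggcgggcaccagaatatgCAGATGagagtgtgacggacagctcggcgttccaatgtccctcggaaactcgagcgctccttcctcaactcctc
Irx4, chr13:73260247-73260496, plus strand: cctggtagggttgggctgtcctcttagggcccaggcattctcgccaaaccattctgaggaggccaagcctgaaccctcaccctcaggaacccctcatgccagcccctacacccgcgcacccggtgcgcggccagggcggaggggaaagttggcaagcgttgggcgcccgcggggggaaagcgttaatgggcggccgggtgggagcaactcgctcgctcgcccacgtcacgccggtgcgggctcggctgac
Irx3, chr8:91801655-91801904, minus strand: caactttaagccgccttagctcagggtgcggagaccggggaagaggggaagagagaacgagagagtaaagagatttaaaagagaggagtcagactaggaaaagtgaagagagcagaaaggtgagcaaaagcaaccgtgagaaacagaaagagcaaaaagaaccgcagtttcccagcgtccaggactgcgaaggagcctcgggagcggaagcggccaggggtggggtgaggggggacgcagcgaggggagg
Crnde, chr8:92356121-92356370, minus strand: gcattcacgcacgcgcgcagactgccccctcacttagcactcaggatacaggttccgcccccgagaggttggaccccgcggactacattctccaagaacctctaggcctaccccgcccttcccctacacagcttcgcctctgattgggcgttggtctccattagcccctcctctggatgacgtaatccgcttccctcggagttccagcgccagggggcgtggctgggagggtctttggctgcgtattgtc

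G and C made up 68.4% of the sequence shown for Irx2, 68.8% for Irx4, 56.0% for Irx3 and 62.0% for Crnde. Their share over all promoters was not computed. The LIM homeodomain core TAATTA was not among the letters of any of the 4 windows of 300 bases, which also hold the 50 bases after the start. Of all 32851 promoter windows in the table, 5.29% hold it. The E-box was found once in the Irx2 window, 74 bases before the start, and once in the Irx4 window, after the start; 72.3% of all windows hold one. The Iroquois site ACANNTGT, which contains an E-box, was in none of the 4 and is in 7.38% of all windows. All 3 motifs read the same on both strands. The nearest interval of either ChIP lay 121 kb from the Irx3 window, 262 kb from that of Irx2 and 893 kb from that of Irx4. For Crnde the nearest was a validation interval 5.19 kb away, on the far side of Irx5. Sequences of the intervals themselves are not shown, because no genome sequence was used here.

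Nearly all of the intervals lay in the deserts, far from the genes. Of the 3.52 Mb in the Irx domains, 3.48 Mb lies outside protein-coding genes. Midpoints outside genes thus largely follow from the domain rule and say little about binding. None of the 14 had its midpoint in a protein-coding gene. In the whole lists, 682 of 1287 first-ChIP and 2552 of 4501 validation intervals had their midpoint outside protein-coding genes. Of the Irx intervals, 2 of 3 in the first ChIP and 5 of 11 in the validation ChIP overlapped a gene for a long non-coding RNA. The share over all listed intervals was not counted, so this is not shown to be a trait of the Irx domains. From the midpoint to the nearest end of an Irx gene, the distance ranged from 119 to 458 kb for the 3 first-ChIP intervals and from 0.339 to 446 kb for the 11 validation intervals (median 212 kb). Only 1 interval, at Irx5, was within 1 kb of an Irx gene end. The share of all listed intervals that near a gene end was not counted. Distance from the genes is thus not shown to be a trait of the Irx domains.

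**Figure D1:**
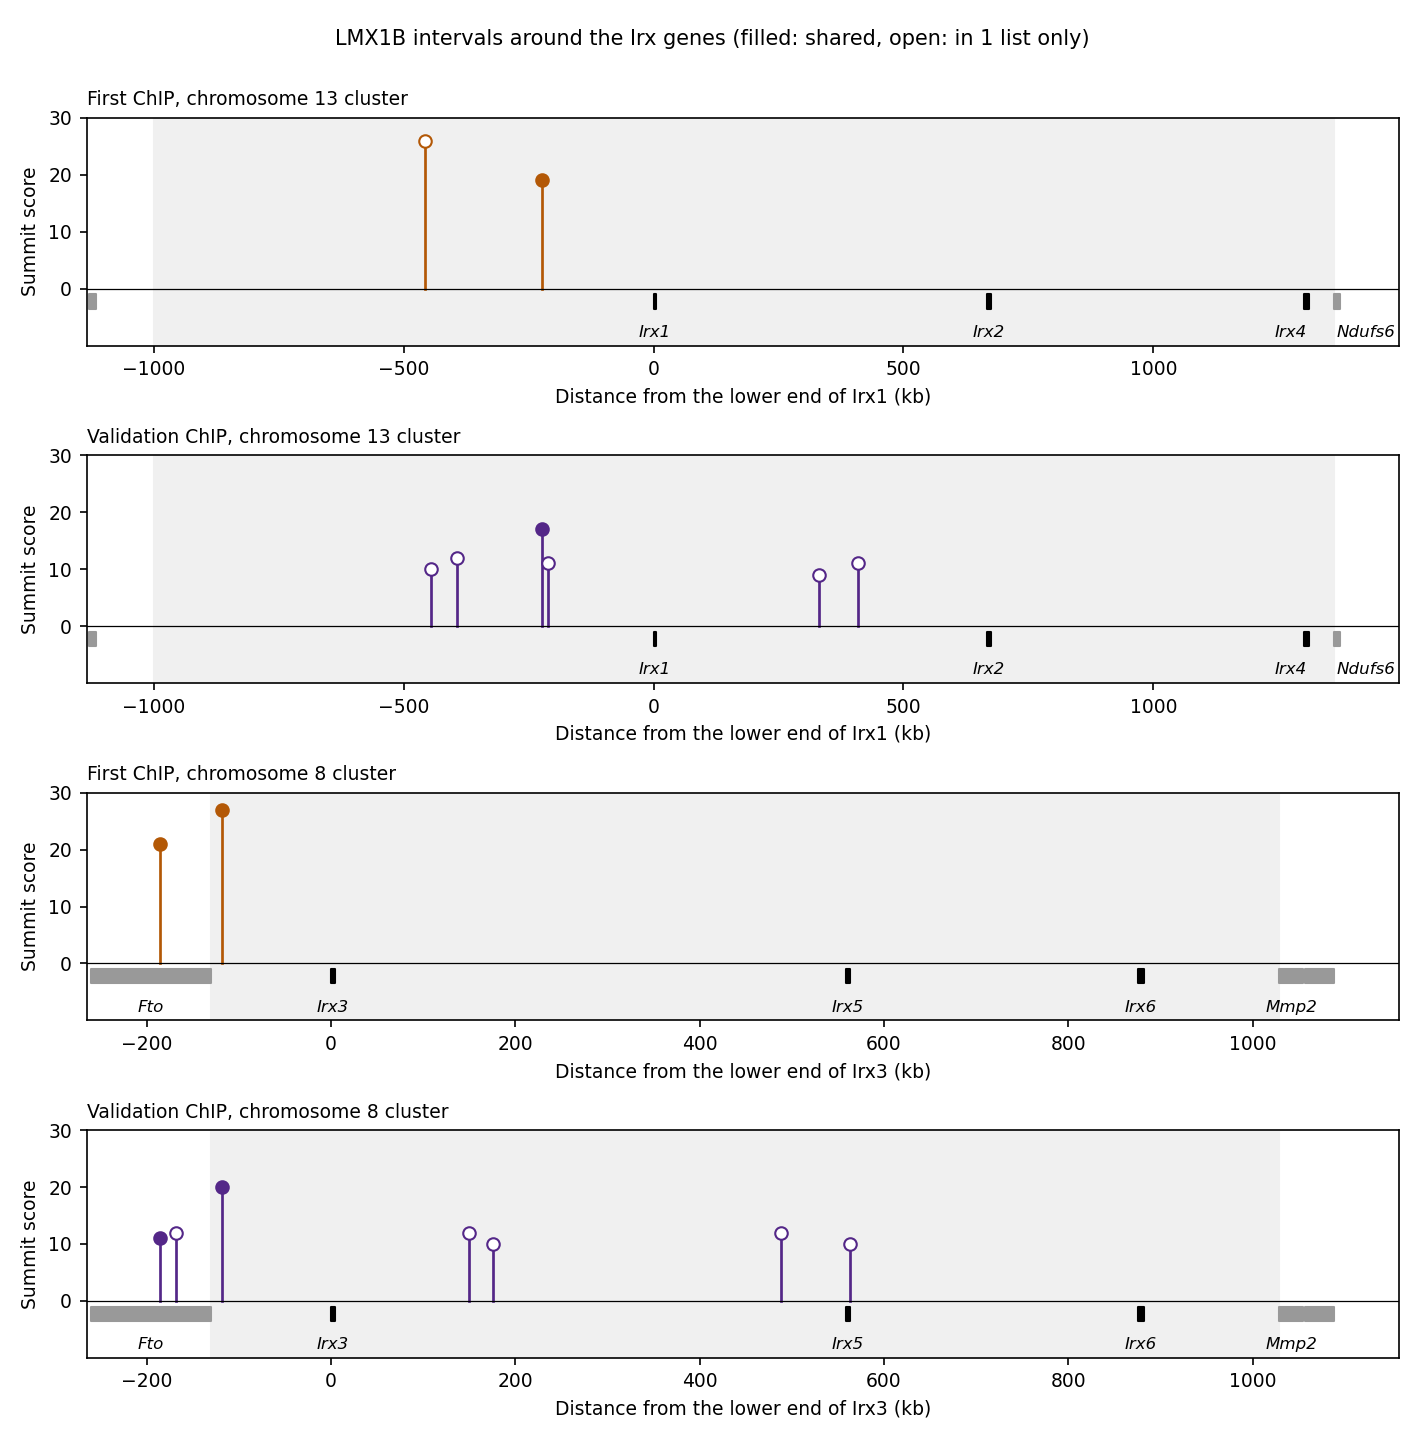
Intervals of each ChIP along the chromosome 13 and chromosome 8 clusters, by distance in kb from the lower end of Irx1 or Irx3 (horizontal axis) and deposited summit score (vertical axis). Filled circles are shared intervals and open circles lie in 1 list only; the shaded span is the union of the Irx domains, black boxes are Irx genes and grey boxes other protein-coding genes. The highest Irx interval of each list, at scores of 27 and 20, is the same place between Fto and Irx3, and the span around Irx4 is empty in both lists.

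On chromosome 8 the place with the highest score was a shared interval between Fto and Irx3. Fto, whose introns are known to hold regulatory elements that contact Irx3, encodes an RNA demethylase. The first-ChIP interval ran from 91679547 to 91680081 on chromosome 8 (535 bp) and had a summit score of 27. In the first list 191 intervals (14.8%) scored at least as high. The validation interval ran from 91679551 to 91680172 (622 bp) and had a score of 20, reached by 339 intervals (7.53%) of its list. The intervals overlapped by 531 bp, and their summits were 64 bp apart. The place lay outside annotated genes of any type, 119 kb from Irx3 and 11.4 kb from the end of Fto. It therefore also falls in the domain of Fto, and Fto is the nearer gene.

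Just beyond that border, the body of Fto (chromosome 8, 91313367 to 91668433) held a further shared pair that the rule leaves out. The first-ChIP interval there, 91612537 to 91612838, had a score of 21 and lay 186 kb from Irx3 and 55.7 kb inside the end of Fto. Its validation partner, 91612433 to 91612974, had a score of 11, with a summit 32 bp away. A validation interval at 91629741 to 91630710 in Fto, with a score of 12, was not shared. The first intervals on either side of the border thus had first-ChIP scores of 27 inside and 21 outside, and validation scores of 20 inside and 12 outside. Whether these places in Fto lie in exons or introns was not resolved.

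The desert between Irx3 and Irx5, 556 kb long, held 3 validation intervals and none of the first ChIP. They lay at 91948109 to 91948896, 91973600 to 91974267 and 92286647 to 92287276, with scores of 12, 10 and 12. The list median is 11, so these scores were at the middle of the validation list. The first of them were nearer to Irx3, at 147 and 172 kb, and the last was nearer to Irx5, at 70.8 kb. The one at 91973600 reached 5 bp into LOC115486949, a long non-coding RNA gene.

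Irx5 (chromosome 8, 92357796 to 92361456) had the closest interval of the family. A validation interval at 92361561 to 92362030 began just past the higher end of the gene body, with its midpoint 0.339 kb from it and a score of 10. It was not shared, and 76.0% of the validation list scored at least as high. The same interval was the only one in the domain of Irx6, 312 kb away. From there to Mmp2, which encodes a matrix metalloproteinase and ends the domain of Irx6, no interval was listed over 465 kb. Beyond Mmp2 the next validation interval lay another 1877 kb away and the next first-ChIP interval 4212 kb away.

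On chromosome 13 all first-ChIP intervals and 4 of the 6 validation intervals lay on the lower side of Irx1, away from Irx2. The shared pair ran from 71734363 to 71734879 in the first ChIP (score 19) and from 71734218 to 71734923 in the validation ChIP (score 17). The whole first-ChIP interval lay inside its partner, and the summits were 48 bp apart. The validation score was among the highest 13.4% of its list. The first-ChIP score was below the list median of 20, and 64.6% of that list scored at least as high. The pair lay in Gm40999, a long non-coding RNA gene (71729628 to 71785889), 224 kb from Irx1. A further validation interval in Gm40999, at 71746349 to 71746910, had a score of 11 and was 12.1 kb from the first.

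A second group of intervals lay farther out, in the long non-coding RNA gene 1700112M02Rik (71487613 to 71612710). The first ChIP had one at 71499661 to 71500176 with a score of 26, higher than that of the shared pair at Gm40999. No validation interval overlapped it. The nearest, at 71512412 to 71512866, was 12.7 kb away and had a score of 10. Another at 71565163 to 71565686 had a score of 12. These 3 places were 458, 446 and 393 kb from Irx1, the nearest protein-coding gene to each.

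The desert between Irx1 and Irx2 (661 kb) held 2 validation intervals, at 72288648 to 72289192 with a score of 9 and at 72366557 to 72366987 with a score of 11. They were the only intervals in the domain of Irx2, which lay 336 and 258 kb from them. No interval was listed in the 625 kb between Irx2 and Irx4, nor in the 50.3 kb between Irx4 and Ndufs6, a gene for a subunit of respiratory complex I. The empty span from the last interval to Ndufs6 measured 953 kb. Above Ndufs6 the next intervals lay 2673 kb (validation) and 2779 kb (first ChIP) away. On the other side, where the limit of 1 Mb ends the domain of Irx1 short of Adamts16, the nearest outside intervals were 765 kb (validation, score 12) and 1503 kb (first ChIP, score 22) from the border, and the nearest inside were 554 and 542 kb from it, with scores of 10 and 26.

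By gene, Irx1 had 2 first-ChIP and 6 validation intervals in a domain of 1666 kb, and 1 of the first was shared. Irx3 had 1 first-ChIP interval, which was shared, and 4 validation intervals in 689 kb. Irx5 had 4 validation intervals in 873 kb, Irx2 had 2 in 1296 kb and Irx6 had 1 in 466 kb. None of these had a first-ChIP interval. Irx4 (chromosome 13, 73259589 to 73269622) had no interval of either list in 686 kb. Neighbouring genes share the desert between them, so 6 of the 11 validation intervals count for a pair of genes. The order of the genes by count is thus not an order of independent values.

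**Figure D2:**
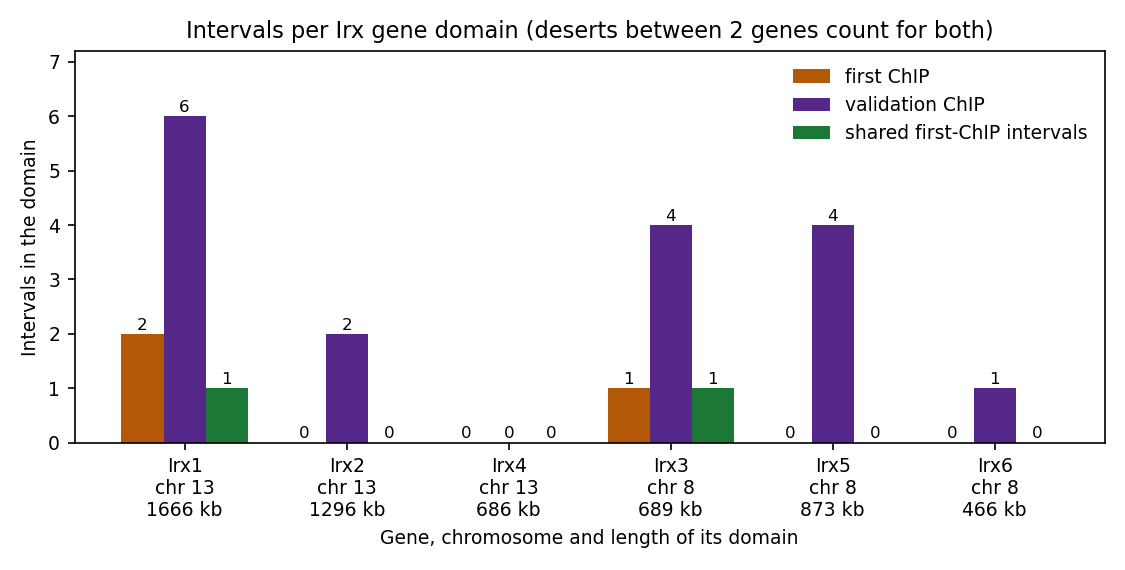
Number of intervals (vertical axis) in the domain of each Irx gene, grouped by cluster, for the first ChIP, the validation ChIP and the shared first-ChIP intervals. Irx1, Irx3 and Irx5 had 6, 4 and 4 validation intervals, and Irx4 had none.

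Long domains collect more intervals, so the counts are set beside all protein-coding genes. A validation interval was present in 5 of 6 Irx domains, against 15.1% of 21775 protein-coding genes, and a shared first-ChIP interval in 2 of 6 against 3.41%. A first-ChIP interval of any kind was present in 2 of 6 against 6.04%. Among the 2146 genes whose domains were at least as long as that of Irx6, the shortest of the family, the shares were 52.7% for a validation interval, 18.7% for a shared one and 25.1% for a first-ChIP interval. With 6 genes that share deserts, these counts do not set the family apart from other genes with long domains.

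For single genes the position among long domains differed. At least 6 validation intervals, the number of Irx1, were found in 7.83% of the 2146 long domains, and at least 4, as for Irx3 and Irx5, in 14.4%. At least 2, as for Irx2, were found in 33.6%. The median of these long domains was 853 kb, against 1666 kb for Irx1 and 1296 kb for Irx2. The shares for these 2 genes are therefore not matched for length and make their counts look rarer than they are. The median long domain held 1 validation interval, and the median of the 6 Irx domains was 3. Irx4 and Irx6, with 0 and 1, were at or below the median of long domains.

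Counted by length, the Irx deserts had a higher density of validation intervals than the space between protein-coding genes at large. In the 3.48 Mb outside gene bodies there were 3.16 validation intervals per Mb (exact 95% Poisson interval 1.58 to 5.65). All space outside protein-coding genes held 1.57 per Mb, and stretches of at least 500 kb held 1.42. The lower bound for the Irx deserts was just above the 1.57 of all such space and above the 1.42 of long stretches. It was not used as a test. For the first ChIP the density was 0.862 per Mb (0.178 to 2.52), against 0.419 in all such space and 0.414 in long stretches, both within its interval. These Poisson intervals cover counting error only and treat intervals as independent. The genes were also chosen with earlier results of these data known, so the higher density was not tested as an enrichment. The cluster on chromosome 8 had 4.37 validation intervals per Mb (1.42 to 10.2) and that on chromosome 13 had 2.57 (0.942 to 5.59). The ranges rest on only 5 and 6 intervals of 1 sample and overlap widely. A difference between the clusters was not tested. Within the clusters no stretch held more than 4 validation intervals, and differences in density between stretches were not tested. There were 7.69 validation intervals per Mb between Fto and Irx3 (1 interval in 130 kb), 5.39 between Irx3 and Irx5 and 4.0 on the lower side of Irx1. Values were 3.20 between Irx5 and Irx6 and 3.03 between Irx1 and Irx2, with none in the remaining 3 of the 8 stretches.

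**Figure D3:**
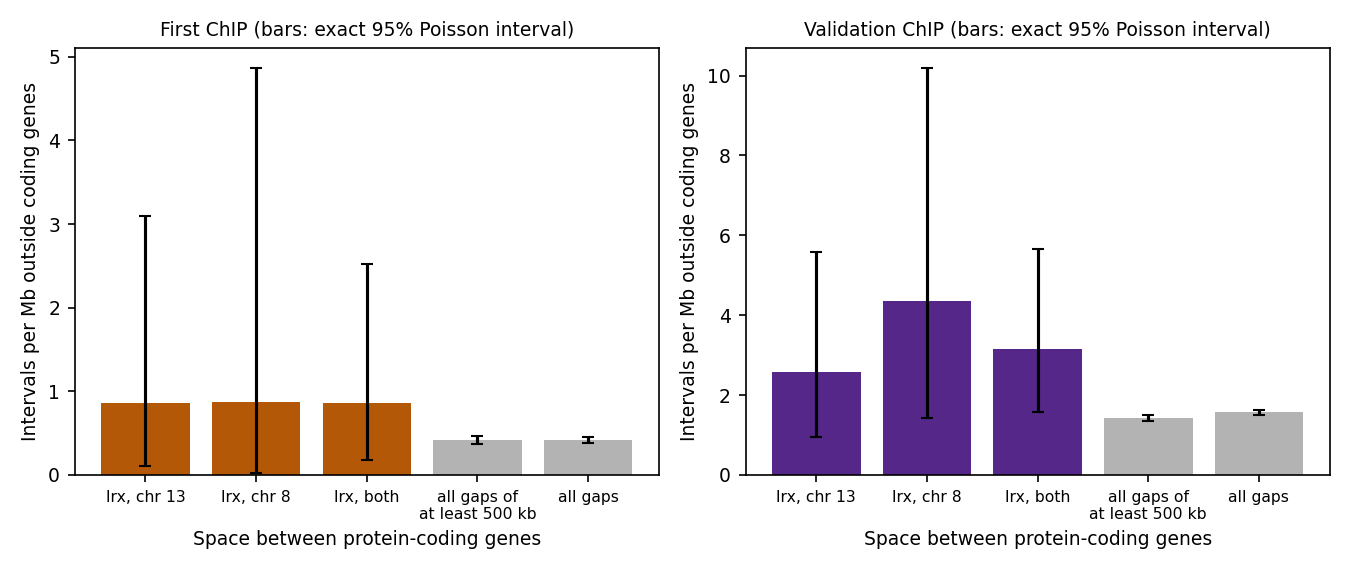
Intervals per Mb of space outside protein-coding genes (vertical axis) for the Irx clusters (coloured) and for all such space or stretches of at least 500 kb (grey), in the first ChIP and the validation ChIP. Error bars are exact 95% Poisson intervals; the validation value for both clusters was 3.16 per Mb against 1.57 in all such space, and the interval of each Irx cluster is wide.

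The share of Irx intervals found in both lists was close to that of the lists as a whole, and so were the validation scores, while first-ChIP scores were higher in 2 of 3 intervals. Of the Irx intervals 2 of 3 in the first ChIP and 2 of 11 in the validation ChIP (18.2%) were shared, against 54.9% and 15.6% in the complete lists. The median validation score of the Irx intervals was 11, equal to the list median. The shared Irx intervals had validation scores of 17 and 20, while the 9 unshared ones ranged from 9 to 12. Medians of the whole validation list were 16 for shared and 11 for unshared intervals, the same order as among the Irx intervals. In the first ChIP the 3 scores were 19, 26 and 27, with a median of 26 against a list median of 20. The scores of 26 and 27 were reached by 17.3% and 14.8% of that list, and here the unshared interval had a score of 26, between those of the shared ones. Widths were 516 to 535 bp in the first ChIP, where the list median is 389 bp, and 431 to 788 bp in the validation ChIP, where the Irx median was 562 bp and the list median 571 bp. Both shared first-ChIP intervals of the family are also in the Active Regions track that the authors deposited, and the unshared one is not. That track holds 57.1% of the whole first-ChIP list, so 2 of 3 is near its share.

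**Figure D4:**
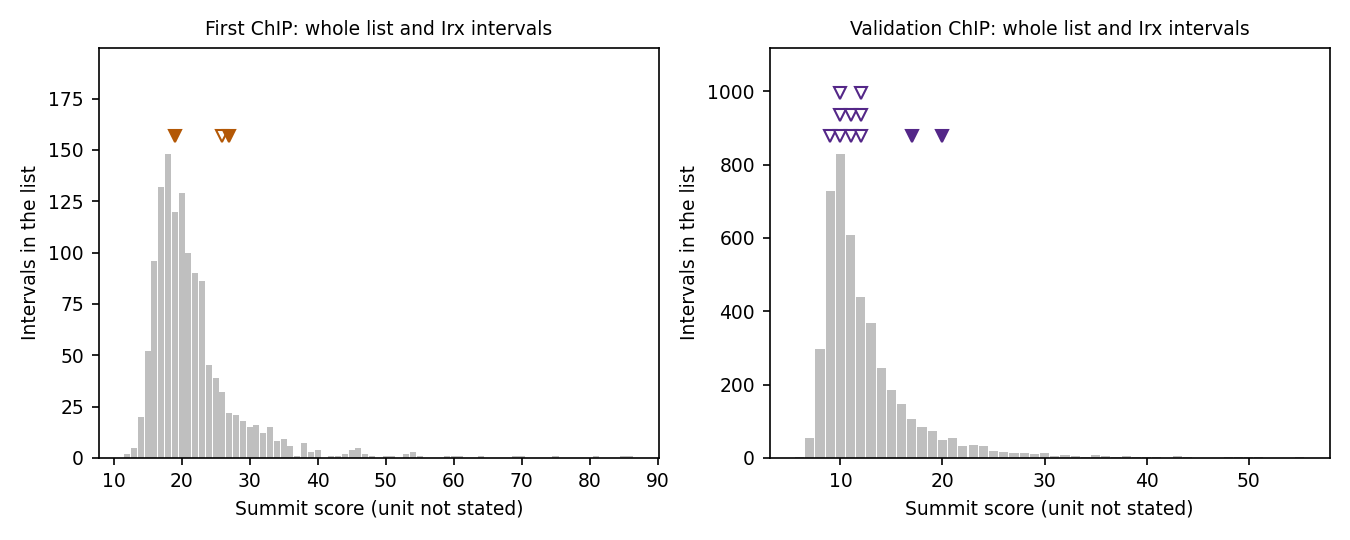
Deposited summit scores (horizontal axis, unit not stated) of all intervals of each list (grey bars, number of intervals) and of the Irx intervals (triangles above; filled for shared, open for unshared). The shared validation intervals, at 17 and 20, lie above the 9 unshared ones at 9 to 12.

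Irx proteins belong to the TALE class together with Meis, Pbx, Pknox, Tgif and Mkx, and the 12 other TALE genes were counted in the same way. A validation interval was present in 8 of 12 domains and a shared one in 2 of 12, against 5 of 6 and 2 of 6 for Irx and 15.1% and 3.41% of all protein-coding genes. The median domain was 225 kb for the other TALE genes and 781 kb for Irx, so the counts are not matched for length. The shared intervals were those of Meis1 and Meis2, which encode cofactors of Hox proteins and mark the proximal limb. That of Meis1 lay on chromosome 11 at 18712369 to 18712709, 168 kb from the gene, with scores of 18 in the first ChIP and 10 in the validation ChIP. That of Meis2 lay on chromosome 2 at 116639808 to 116640268, 573 kb away, with scores of 22 and 28. As at Irx1 and Irx3, these shared places were over 100 kb from the gene. The domains of Meis1 and Meis2 are long, at 1971 and 1100 kb. The share of all shared intervals that far from a gene was not counted, so no common trait is shown.

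Of 5 genes linked with Irx3 and Irx5 in limb or heart development (Gli3, Shh, Ptch1, Sall4 and Tbx5), 4 had a validation interval, 2 a first-ChIP interval and 1 a shared one. Over all protein-coding genes these shares are 15.1%, 6.04% and 3.41%, and in the long domains 52.7%, 25.1% and 18.7%; the median domain of the 5 genes was 432 kb. Tbx5, a forelimb and heart transcription factor, had 2 first-ChIP and 2 validation intervals, none of them shared. The shared intervals belonged to Gli3, the transcription factor that mediates and limits Hedgehog signalling, with 3 first-ChIP, 6 validation and 2 shared intervals in 1366 kb. The nearer shared one was 120 kb from Gli3 on chromosome 13 (15343502 to 15343813), with a score of 17 in each list. Shh, the Hedgehog ligand of the posterior limb bud, had no interval in its domain of 774 kb. The nearest first-ChIP interval lay 245 kb from Shh, beyond that domain. Places inside or past neighbouring protein-coding genes are left out by the rule. Of the genes that border the Irx domains, Mmp2 and Ndufs6 had none, and Fto had those given above.

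Genes most like each Irx gene were sought by the counts of first-ChIP, validation and shared intervals in the domain, over the 2 ChIP samples, and then by domain length. Irx1 had the same 3 counts as 7 other genes; the closest in length were Tle4, which encodes a Groucho corepressor, and Magi1, which encodes a junctional scaffold protein. Irx3 matched 36 genes, with Cbln1, a synaptic organiser, and Peli2, a ubiquitin ligase, closest. Irx5 matched 48 genes, with Ptpru, a receptor phosphatase, and Fgf10, the mesenchymal growth factor that drives limb bud outgrowth, closest. Irx2 matched 358 genes (closest Slc35b3 and Map3k7) and Irx6 matched 1717 (closest Hecw2 and Zbtb18). The matching used the same counts that describe each gene, and such small counts fit many genes. The likeness therefore says little, least of all for Irx2 and Irx6.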

How the data were processed

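LMX1B was mapped by ChIP-seq in 2 ChIP samples of limb buds, with 1 input sample not analysed here. The submitters' processing notes name BWA and build mm10; the version and the peak caller were not given in the sources used here. The authors deposited, per sample, intervals and 1 summit each with a whole-number score of no stated unit, used only within its own list. Samples were identified by track names. The file of the validation ChIP repeats the 1287 first-ChIP intervals, counted once. Of the summits, 96.3% (first) and 94.4% (validation) are multiples of 16 bp, which limits summit distances. Depth is unknown.

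Domains used 21775 protein-coding genes of a RefSeq table (GRCm38.p6; 340 entries starting before 3 Mb left out) with neither strand nor exons. Shared means overlap of at least 1 bp, counted as first-ChIP intervals. Coordinates count from 1. All 6 members and intervals, border genes, list members with shared intervals and the 2 most alike genes per member with an interval (not Irx4, which has none) were named. Members and lists were chosen with earlier results of these data known. Counting functions (Python 3.11.15, pandas 2.3.3) were tested on simulated data. Alternatives covered domains, placement, scores and overlap.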

Additional observations from a re-analysis of the deposited data

How the results depend on the processing

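Counts in the Irx domains were 3 (first ChIP), 11 (validation ChIP) and 2 (shared). They were the same with an extension of at most 500 kb, with no limit, and with placement by summit, and the shared count also with overlap of 50% of both intervals or summits within 100 bp. With 50 kb on each side of the gene body they were 0, 1 and 0, since most intervals lie farther out. By nearest protein-coding gene they were 2, 10 and 1; the shared pair beside Fto is then lost. For scores no lower than the list median they were 2, 7 and 1, where fewer intervals were counted. In the longer domains the background shares were 25.1%, 52.7% and 18.7% in place of 6.04%, 15.1% and 3.41%. Motif counts over whole intervals were not run, since no genome sequence was used here. No paired analysis was possible because each group has 1 sample and no result comes from a test. The lists hold no read counts, so absence from a list does not show that a place is unbound.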

Other observations

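Promoter windows elsewhere in the genome give the letters at the Irx promoters a further background. TAATTA was found in 9.55% of the 471 windows of 300 bases overlapped by a validation interval and in 2.25% of the 267 overlapped by a first-ChIP interval, against 5.29% of all 32851. The 66 windows overlapped by a shared first-ChIP interval are part of the 267. Of these 66, 5 (7.58%) held it, against 6 of all 267. Windows of 1 gene can overlap, and 66 windows belong to 59 gene symbols, so these shares were not tested. For the E-box the shares were 61.1% (validation), 60.3% (first ChIP) and 63.6% (shared), against 72.3% of all windows. For the Iroquois site ACANNTGT they were 3.61%, 4.49% and 3.03% (2 of the 66 windows) in the same order, against 7.38% of all windows.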
